A study of Drosophila melanogaster with 30 samples.

Results

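Potassium channels open to let potassium leave a neuron, which ends the action potential, sets the interval to the next one and holds the resting potential. The genes described here are *Sh*, *Shab*, *Shal*, *Shaw*, *eag*, *sei*, *Elk*, *KCNQ*, *slo* and *SK*, chosen by name as the voltage-gated and calcium-activated potassium channel genes of *Drosophila* neurons. They are 10 of the 17562 genes in the count table. All 10 passed the filter on low counts in every comparison. *Sh*, *Shab*, *Shaw* and *Shal* are the founding genes of the Kv1, Kv2, Kv3 and Kv4 classes, *eag*, *sei* and *Elk* are the 3 branches of the EAG family, *KCNQ* is the fly gene of the class that carries the M-current in mammals, and *slo* and *SK* encode the large and small conductance channels that calcium opens.

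The libraries came from heads of male progeny 1 to 2 days after eclosion, in which *da*Gal4, a driver active in nearly all cells, was crossed to 1 of 3 lines. The control crosses carried the KK line for control RNAi, the UAS-*dTrmt10A* crosses upregulated *dTrmt10A* (*CG14618*, a putative RNA methyltransferase gene) as a tagged open reading frame, and the *dTrmt10A* RNAi crosses knocked it down. All flies therefore carried *da*Gal4, and each transgene was expressed outside neurons as well. Control and UAS-*dTrmt10A* heads were taken in basal conditions or straight after heat stress (HS) of 30 minutes at 38.5 °C, and *dTrmt10A* RNAi heads in basal conditions only, with 3 replicates of 200 pooled heads in each of the 5 groups. PolyA+ RNA of each replicate was fragmented and sequenced as input and after immunoprecipitation with an antibody to N6-methyladenosine (m6A), giving 15 input and 15 IP libraries. An input value is given below as CPM, the count scaled to the size of its library after TMM scaling, which sets the typical gene to no change, and an IP/input value as the log2 ratio of the 2 libraries of 1 replicate. The ratio is also taken after TMM scaling and is not a ratio of shares of the libraries. A ratio above 0 means that the exons of a gene, taken as a whole, had more IP over input than the typical gene.

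The channels of this superfamily share a short selectivity filter in the pore, where the backbone of the protein holds potassium ions without their water. The codons of that filter are shown because they are the element by which a reader can recognise the family in the genome. They were read from RefSeq's release 6 genome (dm6) on the coding strand, 27 bases each, with the 5 filter codons in capitals. The search took only the filter sequences TVGYG, TVGFG, SVGFG and TIGYG, in amino acid letters. A match in 1 unbroken exon was found for these 5 members and none for *Shal* and *eag*. A filter with another sequence would have been missed, so a missing match does not show that the codons are split between exons. The codons of *sei*, *Elk* and *KCNQ* are not shown. The windows lie at chrX:17945221-17945247 (minus strand) for *Sh*, chr3L:2941336-2941362 (plus strand) for *Shab*, chr2L:3723034-3723060 (plus strand) for *Shaw*, chr3R:24675717-24675743 (plus strand) for *slo* and chrX:5394111-5394137 (plus strand) for *SK*.
Sh: atgaccACCGTTGGATATGGTgacatg
Shab: atgacaACTGTTGGCTACGGGgacatc
Shaw: atgaccACCGTCGGCTACGGCgacatg
slo: atgtcaACGGTAGGATATGGTgacgtt
SK: tttttgAGTGTTGGTTTCGGTgatatt
The *Sh* window belongs to 11 annotated transcripts. A second copy of the filter codons, at chrX:17946601-17946627 on the minus strand, belongs to 1 other annotated transcript of *Sh*.
Sh, second exon: atgacgACGGTGGGATATGGTgatatg

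In the Ensembl annotation of the same assembly the channel genes were large. *Sh* (FBgn0003380, X:17924307-18063247, minus strand) had 22801 bases of merged exons, more than any other member. *SK* (FBgn0029761, X:5340236-5405138), *eag* (FBgn0000535, X:14955477-15009989), *Shab* (FBgn0262593, 3L:2895017-2959579) and *slo* (FBgn0003429, 3R:24662491-24711595) had 10891, 10636, 11359 and 10153 exonic bases, in that order. The exons of *Elk* (FBgn0011589, 2R:17873939-17926695), *Shaw* (FBgn0003386, 2L:3718185-3729145) and *Shal* (FBgn0005564, 3L:19566851-19584568, minus strand) came to 5351, 5000 and 4606 bases. *KCNQ* (FBgn0033494, 2R:10145897-10192394, minus strand) and *sei* (FBgn0003353, 2R:24047411-24053035) were the shortest, with 3875 and 3278 bases.

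Across 9526 protein-coding genes that passed the filter the median exon length was 2165 bases, and all 10 members exceeded it, with a median of 7752. Their longest annotated 3'UTR had a median of 2473 bases against 309 for all genes, and 8 of 10 lay above the latter. They had a median of 8 annotated transcripts against 2, and their exons were poorer in G and C, with a median of 45.3% against 49.1% and 1 member above the latter. Exons of *sei* overlap the antisense genes *ppk29* and *gammaSnap1* by 478 bases, and those of *KCNQ* overlap *CG18011* and *asRNA:CR45133* by 1063 bases. Whether counting used strand was not given in the sources used here, so the values of *sei* and *KCNQ* may hold reads of these neighbours. Input levels in basal control heads were 65.3 CPM for *gammaSnap1*, 7.95 for *CG18011*, 1.82 for *ppk29* and 0.353 for *asRNA:CR45133*.

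Input libraries held 20110909 to 51006574 counts and IP libraries 16255688 to 30456825, and no 2 libraries had the same counts. The transgenes acted as labelled: *CG14618* RNA was higher in UAS-*dTrmt10A* than in control heads by 4.35 on the log2 scale in basal conditions and by 5.42 after HS, and lower in RNAi heads, at -1.06. Neuron, glia, photoreceptor, muscle and fat body markers were all detected, so the heads hold many cell types besides neurons. *Yp1*, a yolk protein gene of the female fat body, did not follow the label of male flies. It was at 377 CPM in control basal replicate 1, 174 in UAS-*dTrmt10A* basal replicate 1, 250 in UAS-*dTrmt10A* HS replicate 3 and 450 in *dTrmt10A* RNAi replicate 2, against 0.268 to 50.5 in the other 11 input libraries. Each count of members below is therefore also given without these 4 samples where that moves it.

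In basal control heads every channel gene was well measured, with 837 to 10596 input counts in each library. Per kilobase of merged exon, *Shab*, the delayed rectifier of many fly neurons, had the highest value, 28.5 ± 1.06 CPM per kb (SD, n = 3). *slo* followed at 26.9 ± 0.840 and its replicates overlapped those of *Shab*. *Shal*, whose channel carries the fast transient current of cell bodies and dendrites, came next at 24.2 ± 0.639. *Sh* and *SK* lay lower, at 16.9 and 16.6 CPM per kb, and overlapped each other, above *Shaw* at 15.5. *KCNQ* at 12.9 and *sei* at 12.5 overlapped as well. *Elk* and *eag* were lowest, at 6.41 and 5.66 CPM per kb. This order depends on the divisor, the merged exons of all annotated transcripts, which may exceed the length of any 1 transcript. Before division by length *Sh* stood above *Shab*, at a mean of 386 against 324 CPM.

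**Figure D1:**
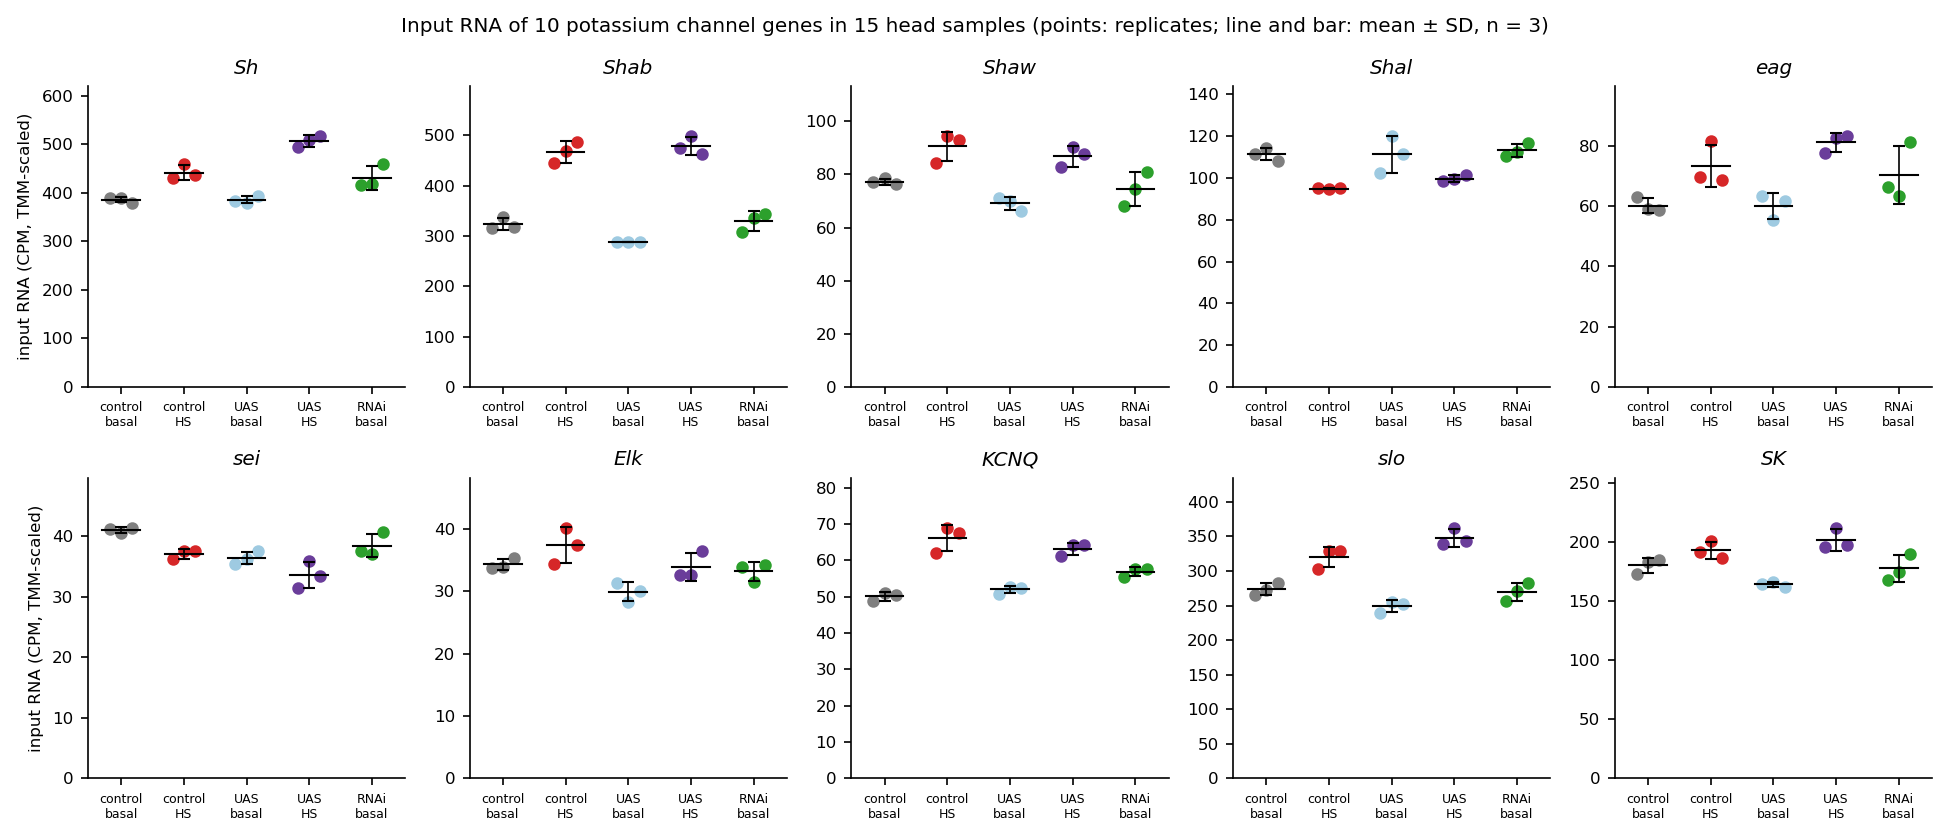
Input RNA of each channel gene in CPM after TMM scaling (vertical axis, from 0) in the 5 groups of heads, 1 point per replicate, with the mean and SD of 3 replicates. *Shab* stood at 315 to 337 CPM in basal control heads and 445 to 488 after HS, while *Shal* stood at 108 to 114 and 94.6 to 95.1; these directions are relative to the typical gene, and with total library size the change of *Shab* stayed positive and that of *Shal* negative.

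HS raised the RNA of most of the channel genes relative to the typical gene within 30 minutes, and *Shab* most. *Shab* input RNA in control heads was 315, 337 and 319 CPM in basal replicates and 445, 468 and 488 after HS. The *Shab* values in UAS-*dTrmt10A* heads were 289, 288 and 288 CPM before and 476, 499 and 464 after. The heated samples lay above the basal ones without overlap in both genotypes, and the log2 change was 0.51 ± 0.0549 (SE) in control heads and 0.73 ± 0.0572 in UAS-*dTrmt10A* heads (edgeR quasi-likelihood test with Benjamini-Hochberg adjustment, adjusted p = 0.000191 and 8.75e-05).

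*Shal* went the other way in control heads. Its input RNA was 111, 114 and 108 CPM in basal and 95.1, 94.6 and 95.0 after HS, with no overlap. The log2 change of *Shal* was -0.25 ± 0.0490 (SE, edgeR adjusted p = 0.00402). In UAS-*dTrmt10A* heads *Shal* stood at 103, 120 and 111 CPM before and 98.4, 99.3 and 102 after HS, where the log2 change of -0.16 did not pass the test (edgeR adjusted p = 0.116). The difference between the genotypes in this change was 0.07 ± 0.0816 (SE).

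In control heads 8 of 10 members passed the test, 6 upward and 2 downward, against 42.4% of the 10219 genes tested (19.3% upward and 23.1% downward). The members' median log2 change was 0.19 against -0.00 for all genes. Besides *Shab*, the genes that rose were *KCNQ* (0.39), *eag* (0.27), *Shaw* (0.21), *slo* (0.21) and *Sh* (0.18, the lowest of them). Besides *Shal*, *sei* fell, by 0.16 on the log2 scale (edgeR adjusted p = 0.0371). The *sei* gene is the fly member of the hERG branch, named for mutants that seize and become paralysed at high temperature. *Elk* and *SK* did not pass, at 0.11 and 0.08 (edgeR adjusted p = 0.242 and 0.235). The *gammaSnap1* gene antisense to *sei* gave a log2 change of -0.15 that did not pass the test, and whether its reads took part in the value of *sei* was not tested.

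In UAS-*dTrmt10A* heads 7 of 10 members passed, all upward, against 40.7% of 10352 genes (18.7% upward and 22.0% downward), with a median log2 change of 0.31. The 7 were *Shab*, *slo* (0.48), *eag* (0.43), *Sh* (0.39), *Shaw* (0.33), *SK* (0.30) and *KCNQ* (0.28). The median of all protein-coding genes in these heads was 0.34 above 10 kb of exon, where 5 members lie, and 0.20 from 6 to 10 kb. With the trend with exon length removed, *SK* (0.019, edgeR adjusted p = 0.820) and *eag* (0.16, edgeR adjusted p = 0.109) no longer passed. *Sh* turned to -0.15 on that scale and passed in the opposite direction, downward. *slo*, the large conductance channel that ends action potentials when calcium enters, stood at 240, 256 and 252 CPM in basal and 339, 363 and 343 after HS in these heads. In control heads *slo* stood at 265, 273 and 282 CPM in basal and 303, 330 and 328 after HS. The basal and heated replicates of *slo* did not overlap in either genotype. All 10 members had the same sign of change in control and in UAS-*dTrmt10A* heads, as 80.0% of 10115 genes did; the 2 comparisons shared no library.

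These directions depend on what is held constant. Scaled by total library size, the median of all genes itself shifted by -0.36 with HS in control heads and -0.37 in UAS-*dTrmt10A* heads, and 65.2% and 63.5% of genes then passed. On that scale the log2 change in control heads was 0.16 for *Shab*, 0.032 for *KCNQ*, -0.086 for *eag*, -0.14 for *Shaw* and *slo*, -0.18 for *Sh*, -0.25 for *Elk*, -0.27 for *SK*, -0.52 for *sei* and -0.60 for *Shal*. There 7 of 10 members passed in control heads, 1 upward (*Shab*) and 6 downward (*Shal*, *sei*, *SK*, *Elk*, *Sh* and *slo*), so that *Sh* and *slo* passed in opposite directions under the 2 scalings (edgeR adjusted p = 0.00919 and 0.0381 with total library size). In UAS-*dTrmt10A* heads *Shab* stayed higher at 0.36 and *slo* at 0.11, while *Shaw*, *Elk*, *KCNQ* and *SK* turned to -0.041, -0.19, -0.090 and -0.073, and 3 members passed, 1 upward and 2 downward. *Shab* upward and *Shal* downward in control heads, and *Shab* upward in UAS-*dTrmt10A* heads, were calls that held under both scalings. *sei* downward in control heads also passed under both, but not with DESeq2 size factors (-0.14, edgeR adjusted p = 0.0573), and it passed in 6 of 15 alternatives in all.

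Several of the smaller calls did not hold when 1 sample was left out. Without control basal replicate 1, the sample with high *Yp1*, 4 members passed in control heads (*Shab*, *KCNQ*, *eag* and *Shal*) where 35.2% of genes did, and without control basal replicate 3 also 4. *sei* and *Shaw* each lost their call in 4 of 6 leave-one-out fits, *Sh* and *eag* in 2 and *slo* in 1. Between 7 and 8 members passed in UAS-*dTrmt10A* heads without any 1 sample, and 8 without both samples with high *Yp1* (*Shal* downward in addition), where 37.3% of genes did.

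**Figure D2:**
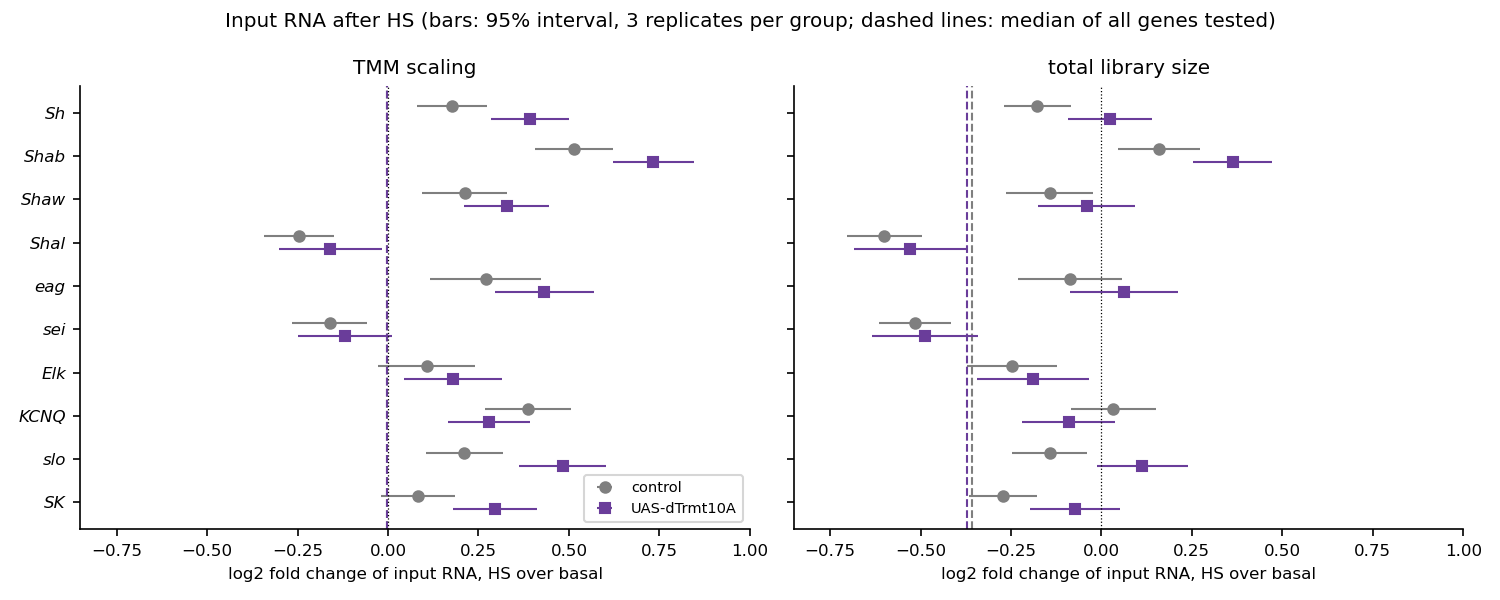
Log2 fold change of input RNA, HS over basal (horizontal axis), for each channel gene in control (circles) and UAS-*dTrmt10A* heads (squares), with 95% intervals from 3 replicates per group. With TMM scaling (left) 8 of 10 control values lie above 0; with total library size (right) the median of all genes, drawn as dashed lines, moves to -0.36 and -0.37 and only *Shab* and *KCNQ* stay above 0 in control heads.

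Cell type markers moved with HS as well. The 8 neuron markers (*elav*, *nSyb*, *brp*, *Syt1*, *Syn*, *cpx*, *para* and *Rdl*) summed to 5662 to 5756 CPM in basal control heads and 6329 to 6668 after HS, and 3 of 8 passed the test upward. The sum in UAS-*dTrmt10A* heads went from 5272 to 5612 CPM to 6829 to 7138, with 8 of 8 passing upward. Glia markers went from 2508 to 2594 CPM to 2767 to 2806 in control heads, photoreceptor markers from 21138 to 23447 to 24074 to 30123, and muscle markers from 6554 to 7878 to 8095 to 10554. The sums hide markers that went the other way. In control heads 3 of 6 glia markers passed upward and 1 downward (-1.11). In UAS-*dTrmt10A* heads 3 glia markers also passed upward and 1 downward (-1.12). Of the photoreceptor and muscle markers 4 of 6 and 6 of 6 passed in control heads, all upward. Fat body markers overlapped, at 4322 to 6367 and 5265 to 8491 CPM, with 1 of 6 passing upward and 2 downward. No marker was at 0 in all libraries of a group. In these bulk samples fewer cells of a type and less RNA per cell cannot be told apart, and the part of these markers in the channels' changes was not tested.

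The question whether *dTrmt10A* changed the heat response was put to the 12 input libraries of both genotypes. No member passed the test of the difference (0.0379% of 10544 genes did), and 4 members and 14.5% of genes had an unadjusted p under 0.05. The members were *slo*, whose rise was larger in UAS-*dTrmt10A* heads by 0.26 ± 0.0752 on the log2 scale (SE, edgeR adjusted p = 0.158), *Sh* (0.20), *Shab* (0.20) and *SK* (0.20). *KCNQ* alone had a negative difference, -0.12 ± 0.0757 (SE). The 8 neuron markers also all had positive differences, with a median of 0.20, and none passed.

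In basal heads no channel gene passed the test of RNA between UAS-*dTrmt10A* and control (2.81% of 10206 genes did). Of the 10 members 6 lay below the control replicates without overlap, against 10.7% of genes. *Elk* had the largest log2 difference, -0.20 ± 0.0576 (SE), followed by *sei* (-0.17), *Shab* (-0.17), *Shaw* (-0.17), *slo* (-0.14) and *SK* (-0.14). All 6 had an unadjusted p under 0.05, as 16.0% of genes did, and their edgeR adjusted p ranged from 0.129 to 0.260. *Sh*, *Shal* and *eag* were close to 0, at -0.01, -0.00 and -0.00. The neuron markers were negative in 8 of 8 and 1 passed, and their part in the channels' values was not tested.

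After HS no member passed between UAS-*dTrmt10A* and control heads either, where 6.53% of 10287 genes did. *Sh*, the Shaker channel of axons and synapses, came nearest. It stood at 430, 459 and 436 CPM in control HS and 494, 509 and 517 in UAS-*dTrmt10A* HS replicates, without overlap. The log2 difference of *Sh* was 0.19 ± 0.0535 (SE, edgeR adjusted p = 0.0718). No label states a pairing of these 2 groups, but their input samples with the same replicate number deviated together (correlation 0.137 to 0.248). With a term for the replicate number *Sh* passed (edgeR adjusted p = 0.0462, where 11.6% of genes did). That pairing was read from the same data. *slo* (0.11) and *Shal* (0.06) were also higher without overlap and *sei* (-0.15) lower, as 15.5% and 14.8% of genes were, and these did not pass. *Sh* alone had an unadjusted p under 0.05, as 24.4% of genes did. *dTrmt10A* RNAi left 0 of 10 members past the test (0.714% of 10225 genes). *eag* (0.23), *KCNQ* (0.19) and *Sh* (0.16) were higher without overlap, against 7.57% of genes, with edgeR adjusted p of 0.406, 0.134 and 0.318 and unadjusted p under 0.05 for all 3 of 10, as for 9.95% of genes. The UAS-*dTrmt10A* and RNAi comparisons in basal heads share the control samples.

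The m6A-IP separated the channels into 2 sets that were the same in all 5 groups. *Sh*, *eag*, *SK*, *Shab*, *KCNQ*, *slo* and *Shal* were above 0 in IP/input, and *Shaw*, *Elk* and *sei* below 0, in every one of the 15 samples. In basal control heads all 10 passed the test, 7 upward and 3 downward, where 69.8% of 10080 genes passed (35.3% upward and 34.6% downward). The fitted log2 IP/input was 1.75 ± 0.108 for *Sh*, 1.34 ± 0.0987 for *eag* and 1.23 ± 0.0933 for *SK* (SE). It was 0.79 for *Shab*, 0.62 for *KCNQ*, 0.58 for *slo* and 0.46 for *Shal*. The remaining 3 were *Shaw* at -0.24 ± 0.0769, *Elk* at -0.44 ± 0.0714 and *sei* at -0.53 ± 0.0771.

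By the replicate means, *Sh*, *eag* and *SK* overlapped in turn, the next neighbours from *Shab* to *Shal* also overlapped, and gaps without overlap separated *SK* from *Shab*, *Shal* from *Shaw* and *Shaw* from *Elk*. The count of members past the test was 9 in control HS heads (70.8% of genes), 8 in UAS-*dTrmt10A* basal heads (62.4%), 10 in UAS-*dTrmt10A* HS heads (69.4%) and 9 in RNAi heads (73.7%). Those that did not pass were *Shaw* in control HS and RNAi heads (-0.14 and -0.17) and *Shal* (0.13) and *slo* (0.17) in UAS-*dTrmt10A* basal heads. With each IP library paired to the input of the same RNA, all 10 passed in each of these 4 groups, where 77.6%, 73.7%, 75.1% and 79.3% of genes did, in the same order. *gammaSnap1*, antisense to *sei*, was also below 0, at -0.51 in basal control heads, and the part of its reads in the value of *sei* was not tested.

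**Figure D3:**
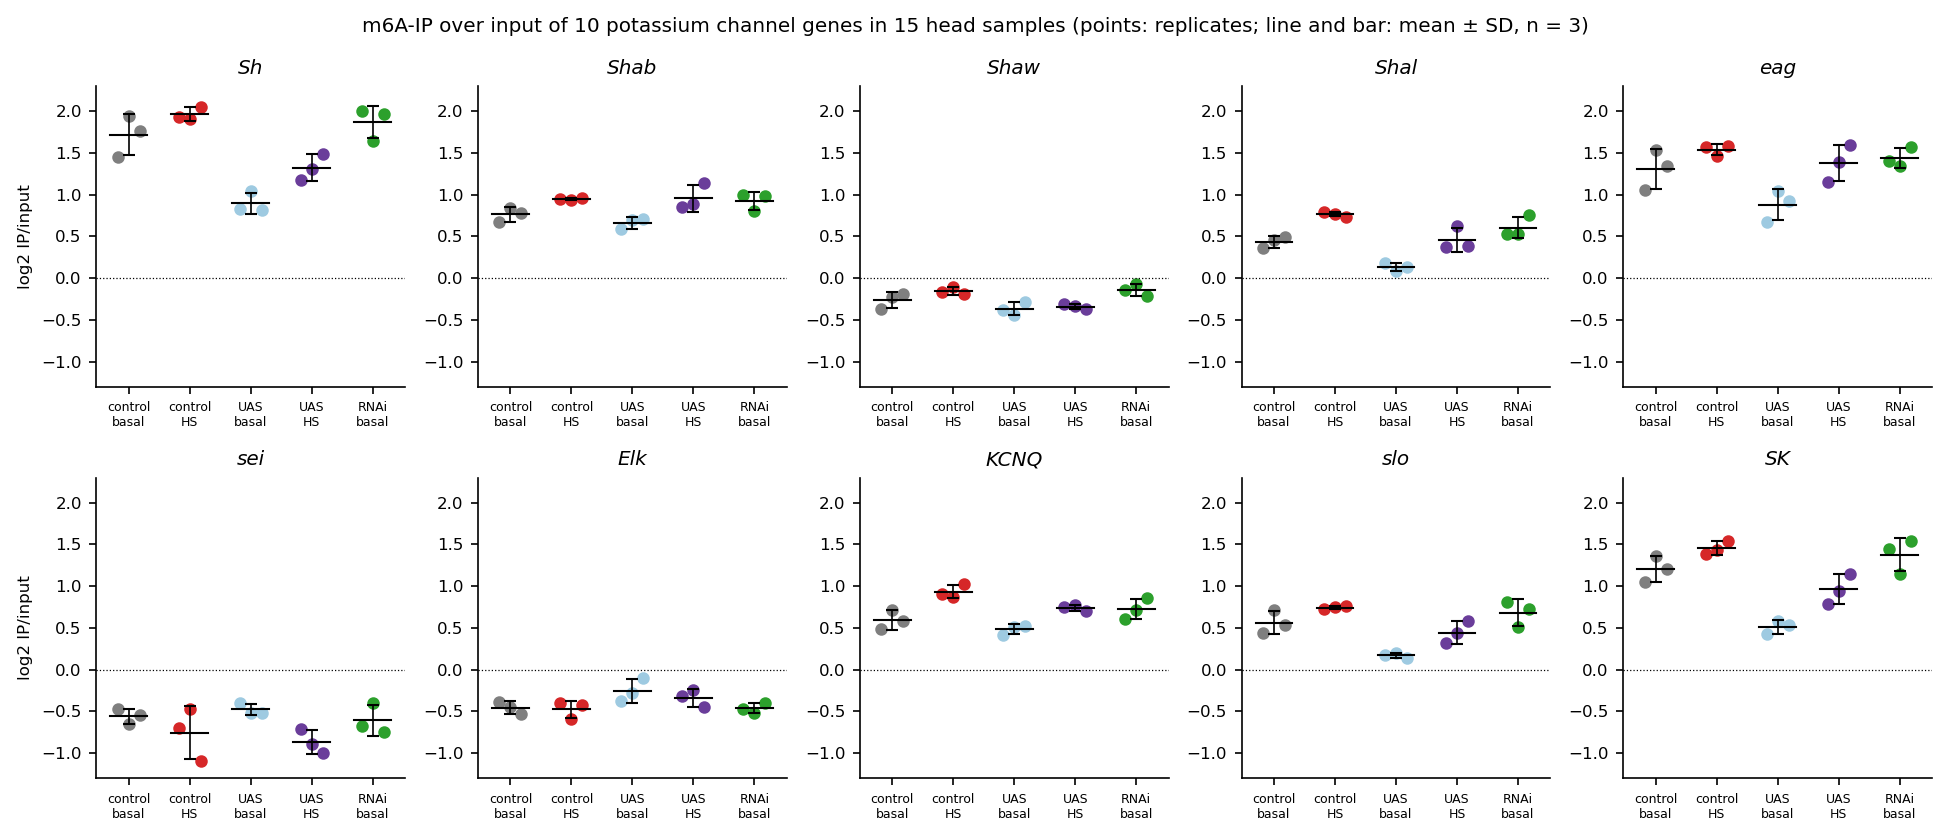
Log2 IP/input of each channel gene (vertical axis, same scale in all panels) in the 5 groups of heads, 1 point per replicate, with the mean and SD of 3 replicates. *Sh* reaches 1.45 to 1.94 in basal control heads and 0.82 to 1.04 in UAS-*dTrmt10A* basal heads, and *Shaw*, *Elk* and *sei* lie below 0 in all 15 samples.

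IP/input followed exon length across genes. In basal control heads the median log2 IP/input was -0.34 for the 1355 protein-coding genes with at most 1 kb of exon and 0.59 for the 257 with more than 10 kb, and Spearman's rho over 9526 genes was 0.35 (0.34 to 0.37 over the 5 groups, with 9385 to 9526 genes). Over the 10 members rho was 0.78 in basal control heads and 0.72 to 0.81 over the groups. With the longest annotated 3'UTR in place of exon length it was 0.78 in basal control heads and 0.68 to 0.78 over the groups. Which of these lengths goes with IP/input was not tested. These are descriptions across genes of the same libraries, and genes are not independent replicates. *Sh*, *eag*, *SK* and *Shab* exceeded the median of the longest genes, 0.59, in basal control heads, and *slo* lay close to it. *KCNQ* and *Shal* exceeded the medians of their own length classes, and *Shaw*, *Elk* and *sei* lay below theirs. These were 0.34 for 4 to 6 kb (*Elk*, *Shaw* and *Shal*) and 0.18 for 3 to 4 kb (*KCNQ* and *sei*). With the length trend removed, 8 of 10 members passed in basal control heads, and *slo* (0.024, edgeR adjusted p = 0.757) and *Shal* (0.099, edgeR adjusted p = 0.184) did not. On that scale the enrichment of *slo* was also lost in control HS (0.084) and RNAi heads (0.078), that of *Shal* in UAS-*dTrmt10A* HS heads (0.078) and that of *SK* in UAS-*dTrmt10A* basal heads (0.14, edgeR adjusted p = 0.0725).

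**Figure D4:**
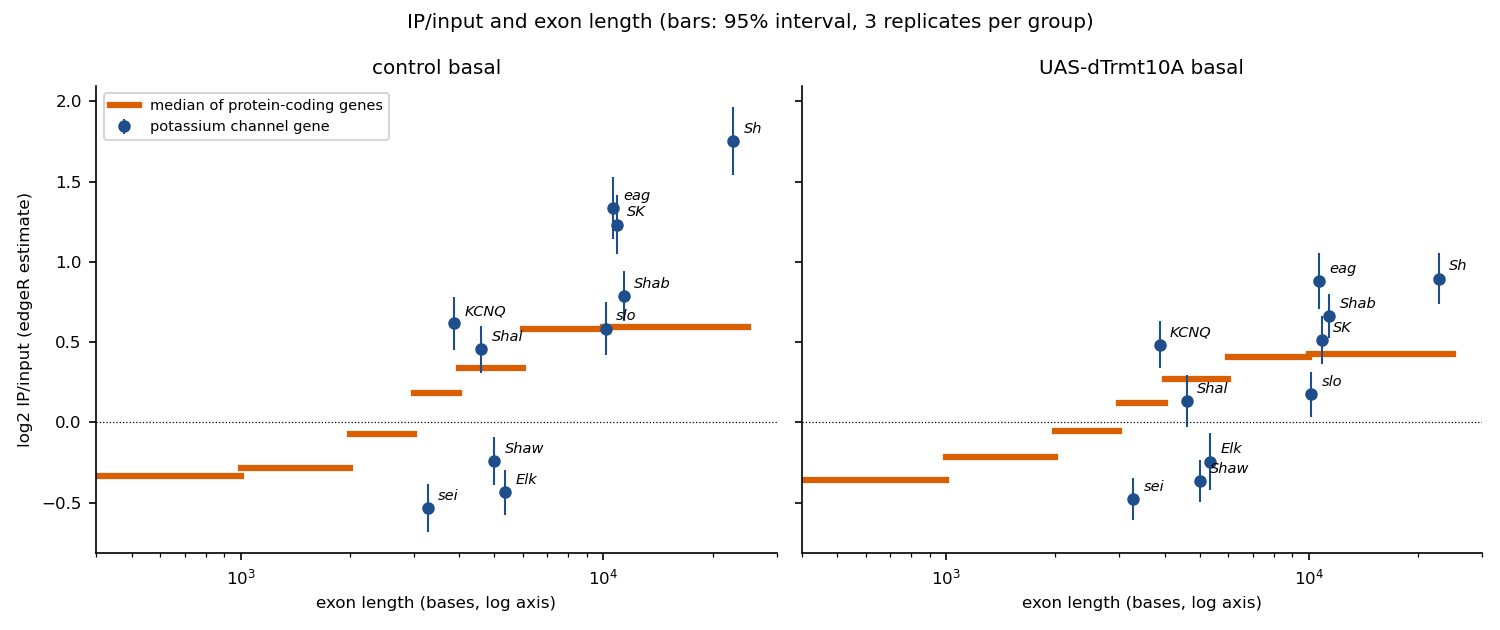
Log2 IP/input (vertical axis, edgeR estimate with 95% interval, 3 replicates per group) against exon length in bases (horizontal log axis) for the channel genes, with the median of all protein-coding genes in 7 length classes as bars, in basal control and UAS-*dTrmt10A* heads. *Sh*, with 22801 bases, stands at 1.75 in control and 0.90 in UAS-*dTrmt10A* heads, where the median of genes over 10 kb is 0.59 and 0.43.

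Between UAS-*dTrmt10A* and control heads, IP/input of several of the enriched channels was lower in the former; in basal heads none passed the unpaired edgeR test, and which passed otherwise depended on the fit. *Sh* log2 IP/input was 1.45, 1.94 and 1.76 in basal control replicates and 0.82, 1.04 and 0.82 in UAS-*dTrmt10A* basal replicates. The groups did not overlap, and the difference was -0.83 ± 0.135 on the log2 scale (SE, edgeR adjusted p = 0.0592). *SK*, the small conductance channel that calcium opens after a spike, stood at 1.05, 1.36 and 1.21 in basal control and 0.42, 0.58 and 0.53 in UAS-*dTrmt10A* basal replicates. Its groups did not overlap either, and its difference was -0.69 ± 0.117 (SE, edgeR adjusted p = 0.0592). This basal difference also went with exon length. Its median over protein-coding genes was -0.13 above 10 kb, where *Sh*, *SK*, *eag*, *slo* and *Shab* lie, and -0.10 from 6 to 10 kb. The median of all genes was 0.01. Over all alternatives, among them removal of that trend, the difference was -0.95 to -0.62 for *Sh* and -0.77 to -0.52 for *SK*.

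*eag* (-0.43 ± 0.131), *slo* (-0.39 ± 0.105) and *Shal* (-0.30 ± 0.102, all SE) were likewise lower without overlap, 5 of 10 members against 14.0% of genes, and *Elk* was higher without overlap (0.21 ± 0.110), as 11.0% of genes were. Unpaired, no member and 0% of the 10368 genes passed, and 5 members and 1249 of the 10368 genes had an unadjusted p under 0.05. The IP and input libraries of a replicate come from 1 RNA sample and deviated together in every group, and with a term for that pairing 5 members passed, all lower, where 7.97% of genes did. The paired differences were -0.82 for *Sh* and -0.69 for *SK* (edgeR adjusted p = 3.58e-05 for both), -0.38 for *slo* (0.00290), -0.42 for *eag* (0.0127) and -0.30 for *Shal* (0.0159). Without the 2 samples with high *Yp1*, and unpaired, *Sh* (-0.90, edgeR adjusted p = 0.0350) and *SK* (-0.70, edgeR adjusted p = 0.0352) passed, where 0.784% of genes did.

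After HS the same comparison had 1 member past the unpaired test, *Sh*, where 0.945% of 10476 genes passed (0.706% downward). *Sh* log2 IP/input was 1.93, 1.90 and 2.05 in control HS and 1.18, 1.30 and 1.49 in UAS-*dTrmt10A* HS replicates, without overlap. Its difference was -0.62 ± 0.118 (SE, edgeR adjusted p = 0.0308). This call did not hold in 5 of 6 leave-one-out fits, where the adjusted p of *Sh* reached 0.156. It held without UAS-*dTrmt10A* HS replicate 3, the sample with high *Yp1*, at -0.79 (edgeR adjusted p = 0.00379), and *SK* then passed as well (-0.65, edgeR adjusted p = 0.0165), where 1.84% of genes did.

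*SK* stood at 1.39, 1.44 and 1.54 in control HS and 0.79, 0.94 and 1.15 in UAS-*dTrmt10A* HS replicates, a difference of -0.47 ± 0.122 (SE, edgeR adjusted p = 0.0806). *Shal* (-0.29), *slo* (-0.28), *KCNQ* (-0.18) and *Shaw* (-0.17) were also lower without overlap, which made 6 of 10 members with *Sh* and *SK* against 13.1% of genes. With the pairing 4 members passed, *Sh*, *SK*, *Shal* and *slo*, where 12.5% of genes did. Their edgeR adjusted p were 0.000123, 0.00152, 0.0269 and 0.0217, in that order. *Shab* gave -0.10 ± 0.0979 in basal and 0.03 ± 0.106 in HS (SE). The neuron markers went the same way as *Sh* in basal heads, with 8 of 8 values negative, a median of -0.34 and none past the unpaired test, and had a median of -0.20 after HS, when 5 of 8 were negative. Their part in the channels' values was not tested. Total library size moved the median of all genes by 0.14 in the basal comparison and 0.04 in the HS one. With TMM scaling the median difference after HS was -0.03 for protein-coding genes above 10 kb of exon, against 0.05 for all genes.

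Input RNA of *Sh* stood at 380 to 390 CPM in basal control and 379 to 394 in UAS-*dTrmt10A* basal replicates. Those ranges overlapped. *SK* input RNA stood at 173 to 185 and 162 to 166 CPM, without overlap. In *dTrmt10A* RNAi heads IP/input differences from the same basal control samples were small, from -0.08 for *sei* to 0.15 for *SK*. No member and 0% of the 10343 genes passed, and no member had an unadjusted p under 0.05, as 2.94% of genes did. *Shal* alone was higher without overlap, by 0.15 ± 0.112 (SE), against 5.78% of genes. The 95% interval of the *Sh* difference in RNAi heads ran from -0.19 to 0.43.

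**Figure D5:**
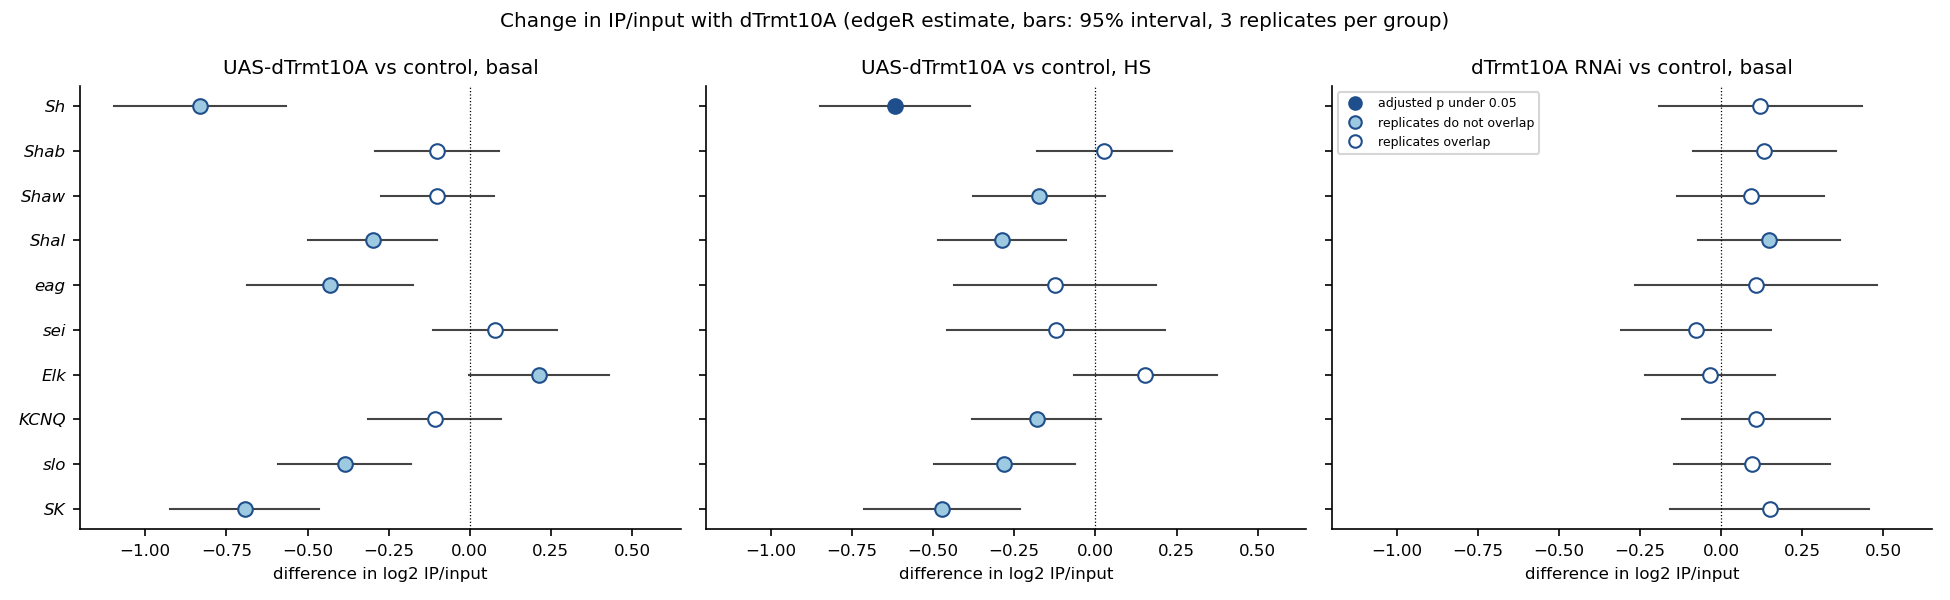
Difference in log2 IP/input (horizontal axis, edgeR estimate with 95% interval) between *dTrmt10A* and control heads for each channel gene in 3 comparisons of 3 against 3 replicates, the first and last of which share the basal control samples. *Sh* and *SK* lie at -0.83 and -0.69 with UAS-*dTrmt10A* in basal and -0.62 and -0.47 after HS; the 10 values with *dTrmt10A* RNAi lie between -0.08 and 0.15.

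HS itself moved the IP/input of the channels less clearly. In control heads no member passed unpaired (0% of 10450 genes), 3 members and 8.36% of genes had an unadjusted p under 0.05, and 6 of 10 lay higher without overlap against 11.3% of genes. With the pairing *KCNQ* (0.36, edgeR adjusted p = 0.0329) and *Shal* (0.35, edgeR adjusted p = 0.0158) rose, where 1.72% of genes changed. *Shal* log2 IP/input was 0.36, 0.46 and 0.49 in basal and 0.79, 0.77 and 0.74 in HS replicates of control heads, while its input RNA fell by 0.25. *KCNQ* was 0.48, 0.72 and 0.58 before and 0.90, 0.87 and 1.02 after.

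In UAS-*dTrmt10A* heads no member passed unpaired (0.0378% of 10588 genes), although 8 members and 17.7% of genes had an unadjusted p under 0.05. With the pairing 8 of 10 members passed, where 18.6% of genes did. *eag* (0.51), *SK* (0.46), *Sh* (0.44), *Shal* (0.33), *Shab* (0.30), *slo* (0.28) and *KCNQ* (0.26) rose and *sei* fell, by 0.39 on the log2 scale, and its replicates lay lower without overlap, as 12.9% of genes did. The replicates of 7 members lay higher without overlap, against 21.1% of genes. With total library size the median of all genes moved by -0.13 in control and -0.23 in UAS-*dTrmt10A* heads, *Shaw* in control heads turned to -0.014, and in UAS-*dTrmt10A* heads *KCNQ* came to 0.0014, *slo* to 0.018, *Shab* to 0.042 and *Shal* to 0.080, while *sei* was the 1 member that passed, at -0.64. Without the samples with high *Yp1* no member passed unpaired in UAS-*dTrmt10A* heads, and the change was 0.30 for *eag* and 0.17 for *Shab*, against 0.52 and 0.30 with them. The 8 neuron markers had positive heat changes of IP/input in both genotypes, with medians of 0.19 and 0.34, and their part was not tested. No member passed the test of whether the heat change of IP/input differed between the genotypes, paired or unpaired (0% of 10753 genes), and no member had an unadjusted p under 0.05 unpaired, as 2.79% of genes did.

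Another 20 genes of potassium channels and their partners were read for comparison. They comprise the auxiliary proteins *Hk*, *qvr*, *Slob*, *Slip1* and *dysc*, the sodium-activated channel *SLO2*, *Shawl*, the inward rectifiers *Irk1*, *Irk2* and *Irk3*, and 10 genes of leak channels of the kind with a pair of pore loops. With HS 6 of the 20 passed upward and 3 downward in control heads, where 42.4% of 10219 genes passed (19.3% upward and 23.1% downward). In UAS-*dTrmt10A* heads 8 passed upward and 4 downward, where 40.7% of 10352 genes did (18.7% upward and 22.0% downward). *sand*, a leak channel of sleep-promoting neurons, rose by 0.63 in control and 0.33 in UAS-*dTrmt10A* heads. *qvr*, which encodes the Sleepless partner of Shaker, rose by 0.30 and 0.49, and *CG1688* by 0.55 and 0.43. *Task7* fell by 0.65 and 0.77, *CG42594* by 0.57 and 0.41 and *Slip1* by 0.25 and 0.24. These changes are relative to the typical gene, which itself moved by -0.36 and -0.37 with total library size, so that rises of that size or less may turn negative on that scale.

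*galene* (0.65), *CG34396* (0.59) and *Irk3* (0.30) passed upward in control heads. *CG10864* (0.84), *dysc* (0.43), *SLO2* (0.27), *Hk* (0.26) and *Slob* (0.26) passed upward and *Shawl* (-0.40) downward in UAS-*dTrmt10A* heads. Whether these differ between the genotypes was tested, and none of the 20 passed. Between genotypes *Ork1* was lower in UAS-*dTrmt10A* HS heads (-0.32, edgeR adjusted p = 0.0498) and *Slob* higher in RNAi heads (0.34, edgeR adjusted p = 0.0464), each 1 of 20. Of all genes 6.53% and 0.714% passed in these comparisons. In IP/input 12 of the 20 passed upward and 3 downward in basal control heads, led by *Hk* (1.36) and *qvr* (1.30). There 69.8% of 10080 genes passed (35.3% upward and 34.6% downward). None of the 20 passed in a change of IP/input; in UAS-*dTrmt10A* basal heads 17 of 20 values were negative, with a median of -0.12 against 0.01 for all genes.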

How the data were processed

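The authors deposited raw counts of read pairs per gene for 30 libraries, 15 input and 15 m6A-IP. Per the labels and the methods, reads were trimmed with Trim Galore and aligned to dm6 with STAR 2.7.3a, and FlyBase exons were counted in union mode. The treatment of strand, multiply mapped reads and duplicates was not given in the sources used here. The labels name 1 m6A antibody for these libraries and the methods name 2, so the antibody is taken as uncertain.

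Counts were tested in R 4.3.3 with edgeR 4.0.16 (TMM scaling, filterByExpr with a minimum count of 10 and a total of 15, glmQLFit and glmQLFTest, Benjamini-Hochberg over all genes tested, threshold 0.05), fitted on the groups compared only. A change in IP/input was the interaction of assay and group. Standard errors are the log2 change divided by the square root of F. The 95% intervals reach 1.96 SE to each side, a normal approximation that is too narrow for so few replicates. An interval that excludes no change can therefore go with an unadjusted p above 0.05, as for *Shal* RNA with HS in UAS-*dTrmt10A* heads (edgeR unadjusted p = 0.0586). Replicate values of IP/input used a prior count of 2. The main fit was tried on simulated data for the HS change of RNA in control heads and the UAS-*dTrmt10A* change of IP/input in basal heads. The other comparisons and the alternatives named next were not. DESeq2 1.42.0, other scalings and filters, 1 fit of all libraries, a replicate block, removal of the trend with exon length and leave-one-out fits were alternatives. Leaving out the 4 samples with *Yp1* above 100 CPM was added after seeing the data.

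IP and input libraries with the same number come from 1 RNA sample, and their deviations from the group means correlated in every group (0.162 to 0.396). The replicate values of IP/input are ratios within these pairs. The main fits of IP/input left the pairing out, and fits with a term for it are given beside them. No label states a pairing across groups. Input samples with the same number correlated positively for every number only between control HS and UAS-*dTrmt10A* HS (0.137 to 0.248). The IP libraries of these groups gave 0.0153 to 0.205. The labels call the replicates biological. Of 17562 symbols, 16846 matched the Ensembl annotation, 648 matched an older symbol and 68 matched none. All 10 members are named throughout, in full where they passed the test or did not overlap between groups, and the other 20 channel genes are counted and named where they passed. The members, the gene lists and the marker lists were chosen with earlier results of these data known. Genes like the members were those with the highest Pearson correlation to the mean of the members' standardised profiles.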

Additional observations from a re-analysis of the deposited data

How the results depend on the processing

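Of the members named in the comparisons, 1388 values under an alternative kept their direction and side of the threshold, 54 passed newly, 49 lost their call and 18 reversed. With total library size the HS change of RNA reversed in control heads for *Sh* (-0.18), *Shaw* (-0.14), *eag* (-0.086), *slo* (-0.14) and *SK* (-0.27), and in UAS-*dTrmt10A* heads for *Shaw* (-0.041), *Elk* (-0.19), *KCNQ* (-0.090) and *SK* (-0.073). The count in UAS-*dTrmt10A* heads was then 3 of 10 (1 higher and 2 lower), *Shaw* IP/input with HS in control heads became -0.014, 1 member passed in the HS change of IP/input in UAS-*dTrmt10A* heads (5.32% of genes), and 2 in the IP/input comparison of the genotypes after HS (1.03%). Here the scaling itself moves all genes by the same amount.

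With the exon length trend removed, the HS change of *Sh* RNA became -0.047 in control and -0.15 in UAS-*dTrmt10A* heads. The latter passed, against its upward call in the main fit. The difference of the heat responses became -0.11 for *Sh*, -0.014 for *Shab* and -0.012 for *SK*. *slo* RNA between UAS-*dTrmt10A* and control HS heads became -0.0066. *slo* IP/input became -0.20 in UAS-*dTrmt10A* basal and -0.13 in UAS-*dTrmt10A* HS heads. On that scale 2 members passed in the IP/input comparison of the genotypes after HS (1.54% of genes). The cause was not tested. The DESeq2 Wald test called 1 member (*Sh*) in RNA (8.34% of genes) and 2 in IP/input (5.56%) when the genotypes were compared after HS, 2 (*Sh* and *slo*) in the difference of the heat responses (5.24%), 3 (*Sh*, *SK* and *slo*) in IP/input when they were compared in basal heads (4.60%), and 1 (*SK*) in the HS change of IP/input in UAS-*dTrmt10A* heads (4.14%). All libraries in 1 fit called 1 (*Sh*) in RNA between UAS-*dTrmt10A* and control HS heads (12.1% of genes) and 2 in the basal IP/input comparison (1.28%), no filter on low counts also called 2 there (0.221%), and at least 10 counts in every library called 2 in the HS one (2.12%). The causes of these differences were not tested.

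With the replicate block the count of members past the test was 5 for the IP/input comparison of UAS-*dTrmt10A* with control in basal heads, 4 for the same after HS, 2 for the HS change of IP/input in control heads and 8 in UAS-*dTrmt10A* heads, and 1 (*Sh*) for RNA between UAS-*dTrmt10A* and control HS heads; the block moved no other count by over 1.5 times. Without the samples with high *Yp1* the count was 4 for the HS change of RNA in control heads, 2 for the IP/input comparison of UAS-*dTrmt10A* with control in basal heads and 2 for the same after HS.

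Leaving out 1 sample at a time gave counts of 4 to 7 for the HS change of RNA in control heads and 7 to 8 in UAS-*dTrmt10A* heads. For IP/input it gave 0 to 2 members between UAS-*dTrmt10A* and control in basal heads and 0 to 2 after HS. Within groups it gave 9 to 10 in control basal, 9 in control HS, 7 to 8 in UAS-*dTrmt10A* basal, 10 in UAS-*dTrmt10A* HS and 9 in RNAi heads. It gave 0 for the remaining comparisons. *Sh* and *SK* passed in basal IP/input without control basal replicate 1. A group left with 2 samples was assumed to vary like the others.

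Counts are over whole genes, so the data do not place m6A within a transcript. With 3 replicates per group, RNA changes of the members carried standard errors of 0.0456 to 0.106 on the log2 scale, and changes larger than these did not always pass, such as *Elk* at -0.20 with UAS-*dTrmt10A* in basal heads (edgeR adjusted p = 0.129).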

Other observations

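By the mean standardised profile of the members over 15 input libraries, the genes most alike among 8882 were *CG12071* (Pearson r = 0.96), *unc79*, *mura*, *Camta* and *jvl* (0.94). Among the members themselves, *Shal* (-0.62) and *sei* (-0.18) ran against that mean profile. Over the 15 IP/input ratios the genes most alike were *mbl* (0.99), *sn*, *CG11791*, *qvr* and *Syngr* (0.98), and *Elk* (-0.57) and *sei* (-0.43) ran against the mean of the members. These points fall into 5 groups of 3 libraries that share treatment, and the correlations are descriptions.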
